A study of Mus musculus with 2 samples.

Results

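Neutrophils are short-lived phagocytes that leave the bone marrow already packed with granule proteins and patrol the blood and the liver sinusoids. Their cytosol is dominated by S100a8 and S100a9, the subunits of calprotectin, and their surface carries the receptor for granulocyte colony-stimulating factor (Csf3r) and the chemokine receptor Cxcr2. Granule genes are read out in sequence during maturation: primary granule enzymes first, secondary granule proteins next, gelatinase last. Mature and ageing neutrophils keep few granule transcripts and gain Cxcr4, the receptor that returns them to the marrow.

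Here neutrophils were cell barcodes with at least 1% of their unique molecular identifier (UMI) counts from S100a8 and S100a9 together and under 0.2% from C1qa, C1qb and C1qc. Barcodes below 500 UMIs or 300 genes, or with 20% or more mitochondrial UMIs, were not used. The rule found 74 neutrophils among 13969 deposited barcodes, 12830 of which passed the filters on UMIs, genes and mitochondrial share. They were 53 of 7662 such barcodes in the cirrhosis library and 21 of 5168 in the control library.

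The study compared 2 libraries of sorted liver endothelial cells. Both came from C57BL/6 mice aged 16 weeks that carried Cdh5-Cre and the mTmG reporter in both copies, so the controls share the transgenes. In these mice a Cre driven by the promoter of Cdh5, the vascular endothelial cadherin gene, switches a ubiquitous membrane tdTomato to membrane eGFP. Cirrhosis followed 12 weeks of inhaled carbon tetrachloride (CCl4), a hepatotoxin. Non-parenchymal cells of 3 mice per group were pooled, and GFP-positive cells that excluded the dead-cell dye SYTOX Red were sorted and sequenced with 10x Genomics 3′ v3 chemistry. With 1 library per group no test between conditions was possible. Each comparison below is between these libraries or between barcodes in a library, and every 95% interval covers counting error only.

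The cirrhosis library held 77339928 UMIs (median 8537 per barcode) and the control library 45767322 (median 6864). Neutrophils were shallower: the median was 2650 UMIs in the cirrhosis library and 3487 in the control library, against 5575 for the other leukocytes of the cirrhosis library. Of the cell barcodes, 17 occurred in both libraries, and none of these was a neutrophil. The 1206 other leukocytes of the cirrhosis library were taken by marker thresholds: 445 monocytes and macrophages, 329 Kupffer cells, 244 T and NK cells, 126 B cells and 62 plasmacytoid dendritic cells. Monocytes and macrophages (the monocyte gate below) needed 0.3% of UMIs from Lyz2, Csf1r, Ccr2, Ms4a6c, F13a1, Ly6c2 and Cd209a together. Kupffer cells needed 0.5% from C1qa, C1qb and C1qc. T and NK cells needed 0.2% from Cd3d, Cd3e, Cd3g, Trbc2, Nkg7, Ncr1, Klrb1c and Gzma. B cells needed 0.2% from Cd79a, Cd79b and Ms4a1, and plasmacytoid dendritic cells 0.1% from Siglech and Ccr9. Levels of these genes in other leukocytes are set in part by that choice. The control library had 600 by the same thresholds.

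Neutrophils were 0.692% of the filtered barcodes in the cirrhosis library (exact Clopper-Pearson 95% interval 0.519% to 0.904%) and 0.406% in the control library (0.252% to 0.621%). As a share of all leukocytes they were 4.21% (3.17% to 5.47%) and 3.38% (2.11% to 5.12%). Both pairs of intervals overlap, and a GFP sort can set the share of any leukocyte. S100a8 and S100a9, which chose the cells, took 1.29% to 33.9% of each neutrophil's UMIs in the cirrhosis library (median 7.67%) and 1.10% to 23.3% in the control library (median 10.5%). The limit of 1% fell in a sparse range. The cirrhosis barcodes just outside it had 0.869% and 0.639%, and those just inside had 1.29% and 1.504%. In the control library the nearest values were 0.178% outside and 1.10% inside.

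The cells carried the other neutrophil markers. The 11 markers beside S100a8 and S100a9 took 0.119% to 5.78% of UMIs in the cirrhosis neutrophils (median 0.937%) and 0.237% to 3.77% in the control neutrophils (median 1.66%). In the other leukocytes of the cirrhosis library the same sum had a median of 0 and reached 0.675%. Csf3r was detected in 53 of 53 cirrhosis and 21 of 21 control neutrophils. Cxcr2 was detected in 50 and 21 of them, and Mmp9, the gelatinase B gene, in 48 and 21. Ly6g, whose product is the usual antibody target for mouse neutrophils, was detected in 7 of 53 and 1 of 21 only, at 107.4 and 10.7 UMIs scaled to a fixed total per class (counts per 1000000 UMIs, CPM). The label neutrophil therefore rests on receptors and granule genes rather than on Ly6g.

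**Figure D1:**
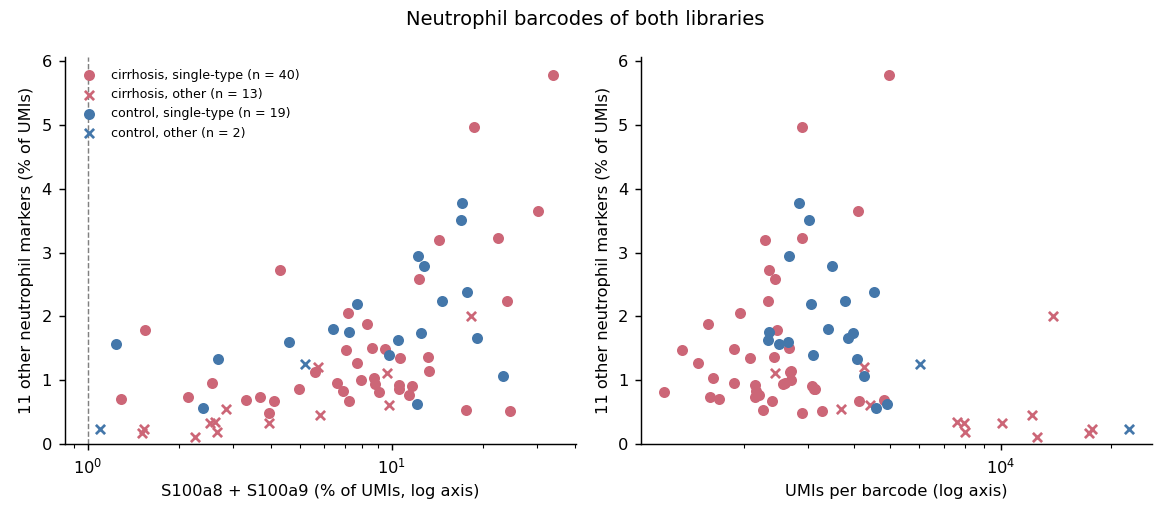
The left plot shows, for each of the 74 neutrophils, the percent of UMIs from the 11 other neutrophil markers (y axis, linear scale). Its x axis is the percent from S100a8 and S100a9 (log scale). The right plot shows the same y axis against UMIs per barcode (x axis, log scale). Of the 11 barcodes with 6000 UMIs or more, 9 have a marker share under 0.5%.

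Some barcodes held RNA of a second cell type. Of the 53 cirrhosis neutrophils, 9 had at least 1% of UMIs from hepatocyte genes (Hp, which neutrophils also express, not counted), 1 had at least 1% from endothelial genes, and 9 had 6000 UMIs or more. These 13 barcodes held 54.75% of the 223378 UMIs of the cirrhosis neutrophils. In the control library 2 barcodes held 30.34% of 93680 UMIs, and none had 1% of hepatocyte genes. The other 40 cirrhosis and 19 control neutrophils are called single-type below, a subset defined after the values had been seen. Hepatocyte genes show the effect. The summed level of Alb, the albumin gene, was 6961 CPM in the 53 cirrhosis neutrophils, 237.4 CPM in the 40 single-type ones and 695.7 CPM in the other leukocytes. Neutrophil genes stood higher without the mixed barcodes: Csf3r was at 1701 CPM in all 53 and 2721 CPM in the 40. Levels against other leukocytes are for all 53 cells unless single-type cells are named.

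Few neutrophils carried the sorted reporter's transcript. After each barcode was thinned to 1200 UMIs, eGFP was detected in 20.8% of the cirrhosis neutrophils (10.8% to 34.1%) and 33.3% of the control neutrophils (14.6% to 57.0%). The same measure gave 75.2% and 77.6% of endothelial barcodes. tdTomato was detected in 26.4% of cirrhosis neutrophils (15.3% to 40.3%) and 19.0% of control neutrophils (5.45% to 41.9%), against 0.2% and 1% of endothelial barcodes. Unthinned, eGFP was found in 28.3% and 38.1% of neutrophils and tdTomato in 37.7% and 42.9%. Other leukocytes carried little reporter transcript as well. Both transcripts together took 0.0886% of summed UMIs in cirrhosis neutrophils, 0.0594% in single-type ones and 0.0329% in other leukocytes of that library. In the control library the values were 0.0374%, 0.0383% and 0.0339%. Cirrhosis barcodes that were not single-type held up to 48 eGFP UMIs, and single-type ones up to 11. How these cells entered a GFP gate was not tested.

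Comparison with the other leukocytes of the cirrhosis library asked which genes set neutrophils apart. Since the cells were chosen by S100a8 and S100a9, all values of this contrast are descriptions. Counts were summed over barcodes and scaled to CPM, and genes with a mean of at least 50 CPM over both groups were compared. A gene high only in neutrophils can reach that mean through them, so list counts below describe the lists and test nothing. Of 3243 such genes, 568 were at least 2-fold higher in neutrophils (17.5%) and 473 at least 2-fold lower (14.6%). The single-type neutrophils gave 799 higher (25.5%) and 714 lower (22.8%) of 3136. The median log2 ratio over all genes was 0.06, and 0.14 for single-type cells.

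S100a8 lies on mouse chromosome 3 (GRCm38, 90668978 to 90670035, plus strand) and S100a9 beside it (90692632 to 90695721, minus strand). S100a8 took 0.0585% to 17.3% of UMIs per cirrhosis neutrophil (median 3.65%) and S100a9 0.884% to 16.6% (median 3.57%). In control neutrophils the medians were 3.73% and 5.98%. The 2 transcripts rose and fell together from cell to cell (Spearman rho 0.874 over 53 barcodes thinned to 1200 UMIs, across cells of 1 library). Over the 40 single-type cells rho was 0.823. Their sum chose the cells, so both values are descriptions. Other leukocytes had 14.7 CPM of S100a8 and 9.40 CPM of S100a9, which were found in 43 and 34 of 1206 barcodes.

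Promoters of 5 genes that the results below turn on are shown because each held letters read by a factor of the granulocyte lineage, though no motif was common to the 5. Each is the 250 bases before the gene start in RefSeq's GRCm38.p6 table, 5′ to 3′ on the gene's strand. Gene positions elsewhere in the text are from the GENCODE annotation, whose starts of S100a8 and Retnlg differ from RefSeq's, so the S100a8 window runs into the GENCODE gene. Capitals mark TTGCNNAA, a core bound by C/EBP factors, and GAGGAA, a core bound by the ETS factor PU.1, on either strand. No matches overlap in these 5 windows. The windows are chr3:90668821-90669070 (plus strand) for S100a8, chr3:90695722-90695971 (minus) for S100a9, chr16:48872358-48872607 (plus) for Retnlg, chr9:7558179-7558428 (plus) for Mmp8 and chr2:32387740-32387989 (minus) for Lcn2.
S100a8: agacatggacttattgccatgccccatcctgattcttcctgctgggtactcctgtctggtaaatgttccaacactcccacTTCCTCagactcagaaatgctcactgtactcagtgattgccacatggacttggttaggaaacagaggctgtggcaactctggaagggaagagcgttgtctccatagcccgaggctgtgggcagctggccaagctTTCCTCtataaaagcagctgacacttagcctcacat
S100a9: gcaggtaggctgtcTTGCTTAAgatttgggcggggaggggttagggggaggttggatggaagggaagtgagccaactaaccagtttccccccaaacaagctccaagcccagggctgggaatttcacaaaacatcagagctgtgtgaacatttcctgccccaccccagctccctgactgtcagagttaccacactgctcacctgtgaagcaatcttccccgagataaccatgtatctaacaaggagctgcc
Retnlg: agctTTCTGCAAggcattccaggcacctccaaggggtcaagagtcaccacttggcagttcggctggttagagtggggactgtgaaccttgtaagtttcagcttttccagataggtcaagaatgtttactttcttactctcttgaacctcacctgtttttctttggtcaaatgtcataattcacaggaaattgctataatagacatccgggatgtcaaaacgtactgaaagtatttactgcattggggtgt
Mmp8: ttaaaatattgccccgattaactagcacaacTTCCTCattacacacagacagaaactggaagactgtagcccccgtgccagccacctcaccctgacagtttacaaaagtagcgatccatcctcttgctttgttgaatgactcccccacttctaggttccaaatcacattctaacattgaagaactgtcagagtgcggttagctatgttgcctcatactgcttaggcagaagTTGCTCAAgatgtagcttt
Lcn2: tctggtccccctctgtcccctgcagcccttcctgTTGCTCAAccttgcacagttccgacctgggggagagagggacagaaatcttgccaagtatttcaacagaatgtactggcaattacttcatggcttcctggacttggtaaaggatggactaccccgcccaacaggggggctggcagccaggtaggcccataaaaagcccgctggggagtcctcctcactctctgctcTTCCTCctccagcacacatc
TTGCNNAA began 236 bases before the start of S100a9, 246 before Retnlg, 19 before Mmp8 and 216 before Lcn2. GAGGAA began 170 and 36 bases before the start of S100a8, 219 before Mmp8 and 20 before Lcn2. Over all 27025 promoters of this length, 9.55% held TTGCNNAA and 23.1% held GAGGAA. The shares were 42.9% and 57.1% of 21 matched secondary granule genes, and 15% and 80% of 20 matched neutrophil surface genes. Primary granule genes, which had no UMI in these neutrophils, gave 0% and 83.3% of 6. Pattern recognition genes gave 26.7% and 60% of 15, and transcription factor genes 5.88% and 5.88% of 17. Whether a motif share goes with the level of a list was not tested. A match is a run of letters, not a measured binding site.

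Receptors and surface molecules had the highest median of the 17 functional lists. Of 24 listed genes, 17 reached 50 CPM, 14 of them at least 2-fold higher than in other leukocytes and none lower (median log2 ratio 4.69, single-type 5.52). Csf3r took 0.0431% to 0.717% of UMIs per cirrhosis neutrophil, with a median of 0.233%. Its summed level was 1701 CPM against 31.4 CPM in other leukocytes, a log2 ratio of 5.76 (5.55 to 5.97). Every neutrophil carried it, and so did 208 of the 1206 other leukocytes. Cxcr2, the receptor for CXC chemokines that draw neutrophils into tissue, was at 859.5 CPM against 1.58 CPM (log2 ratio 9.09, 8.40 to 9.85), with 1425 CPM in single-type cells. Il1r2, a decoy receptor for interleukin-1, was at 394 CPM (662.8 CPM in single-type cells) against 2.83 CPM. Trem1, an amplifier of inflammatory signalling, was at 304.4 CPM (494.7 CPM in single-type cells) against 2.58 CPM. The C-type lectins Clec4e and Clec4d were at 331.3 and 295.5 CPM (613.4 and 445.2 CPM in single-type cells) against 4.99 and 11.5 CPM. Fcgr3, an Fc receptor, was at 255.2 CPM (494.7 CPM in single-type cells) against 404.4 CPM.

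Most measured chemoattractant receptor genes were higher. Of 16, Cxcr2 among them, 11 reached 50 CPM, with 9 higher and 2 lower (median log2 ratio 2.61, single-type 3.04). Cxcr4 was at 814.8 CPM in neutrophils (1286 CPM in single-type cells), 86.1 CPM in other leukocytes and 3.85 CPM in endothelial barcodes. Ccr1, a receptor for CC chemokines, was at 555.1 CPM (900.3 CPM in single-type cells) against 55.9 CPM, and the complement receptor C5ar1 at 398.4 CPM (702.4 CPM) against 80.3 CPM. Hcar2, the receptor for niacin and hydroxybutyrate, was at 125.3 CPM (217.6 CPM in single-type cells) against 0.998 CPM. The lower genes were Ccr2, the monocyte chemokine receptor, with 1 positive neutrophil (4.48 CPM against 422.5 CPM), and C3ar1. Ccr2 is among the genes that defined the monocyte gate.

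Granule genes were divided by maturation stage. None of the 6 listed primary granule genes, among them Mpo, Elane, Prtn3 and Ctsg, had a single UMI in any of the 74 neutrophils. With 3 counts as the limit for a count of 0, 0 of 74 cells allows a share of up to 4.05% of cells with a UMI. Of 26 secondary granule genes and their companions, 16 reached 50 CPM, with 11 higher and 3 lower (median log2 ratio 4.05, single-type 3.87). Single-type cells also gave 11 higher and 3 lower of 16, but Orm1 was no longer among the higher genes and Ltb4r1 was. Hp, which is also on the hepatocyte list, was higher in both sets. The lower genes were Lyz2, Cybb and Ear2, which macrophages also express, and Lyz2 helped define the monocyte gate. Classic secondary granule transcripts were sparse. Ltf was found in 2 cirrhosis neutrophils, Ngp in 5 and Camp in 1, and none of them in the control neutrophils. A barcode of 13909 UMIs that was not single-type held 17 Camp, 14 Ngp and 4 Ltf UMIs. No other cell had more than 2 UMIs of any of these genes. The same barcode had the highest shares of Lcn2 (1.208% of its UMIs) and Mmp8 (0.374%) among the cirrhosis neutrophils.

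Retnlg, which encodes the secreted resistin-like gamma (chromosome 16, 48872621 to 48874496, plus strand), took 0% to 4.91% of UMIs per cirrhosis neutrophil with a median of 0.0230%. It was at 4074 CPM in all and 6895 CPM in single-type neutrophils, against 2 UMIs in the 1206 other leukocytes (log2 ratio 14.58, 12.72 to 17.63). The wide span and low median show that a part of the cells carried nearly all of it. Lcn2, which encodes the iron-sequestering protein lipocalin 2, was at 1921 CPM (1583 CPM in single-type cells) against 30.4 CPM, and was found in 34 of 53 cells. Slpi, a protease inhibitor, was at 1025 CPM (1761 CPM in single-type cells) against 21.96 CPM. Mmp8, neutrophil collagenase, was at 519.3 CPM (425.4 CPM in single-type cells) against 6.32 CPM but was found in only 16 of 53 cells. Stfa2l1 and Gm5483, members of the stefin A family of cysteine protease inhibitors, had no UMI in the other leukocytes. Stfa2l1 was at least 932.7-fold higher with the floor of 3 counts, and near-identical family members can share reads. Gelatinase granule genes gave 5 higher and none lower of 7 measured (median log2 ratio 1.82, single-type 2.44). Arg1 was among the 5, but not among the 6 higher of 8 in single-type cells. Mmp9 was at 971.4 CPM (1533 CPM in single-type cells) against 3.08 CPM.

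**Figure D2:**
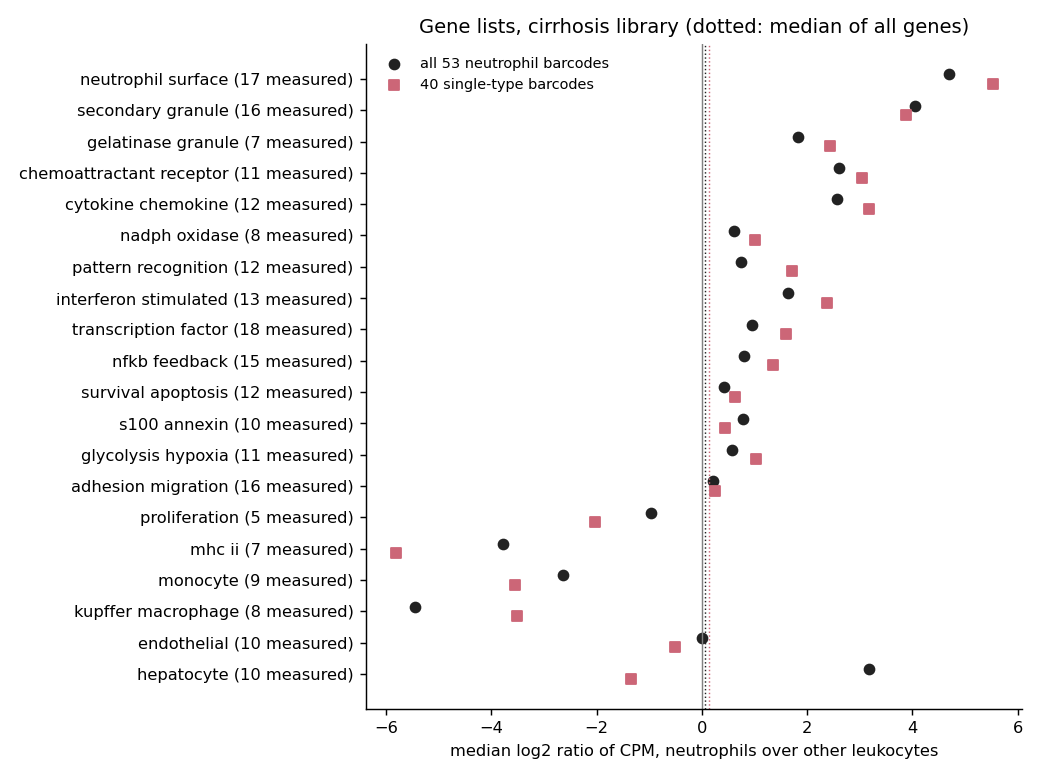
Median log2 ratio of each gene list in cirrhosis neutrophils over other leukocytes of the same library (x axis), for all 53 neutrophils and for the 40 single-type ones. For all 53 cells, neutrophil surface genes lie furthest to the right and MHC class II and Kupffer genes furthest to the left, and the hepatocyte list changes side (3.18 to -1.34) without the mixed barcodes.

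Cytokine genes centred on interleukin-1. Of 24, 12 reached 50 CPM, with 7 higher and 1 lower (median log2 ratio 2.57). Single-type cells gave 10 higher and 1 lower of 13 (3.17), with Ccl3, Ccl6 and Tnf among the higher genes. Il1b took 0% to 2.68% of UMIs per cirrhosis neutrophil (median 0.892%), and 52 of 53 carried it. Its level was 5967 CPM in all and 9675 CPM in single-type cells, against 169.1 CPM in other leukocytes and 240.6 CPM in the monocyte gate. The single-type cells started at 0.125% of UMIs. Il1rn, the natural antagonist, was at 192.5 CPM (316.6 CPM in single-type cells) against 35.1 CPM, and Il1f9, an interleukin-36 gene, was at 116.4 CPM in neutrophils with no UMI in other leukocytes (at least 466.4-fold). The chemokine Cxcl2 was at 519.3 CPM (1029 CPM in single-type cells) but in 16 of 53 cells only, with a highest value of 1.001% of UMIs. Ptgs2, which encodes cyclooxygenase 2, was at 295.5 CPM (544.1 CPM in single-type cells) against 2.75 CPM. Csf1, the macrophage growth factor, was at 205.9 CPM (375.9 CPM in single-type cells) against 10.98 CPM. The chemokine genes Ccl3 and Ccl4 stood at 156.7 and 179.1 CPM, and at 296.8 and 366.0 CPM in single-type cells, against 129.2 and 237.4 CPM. Ccl5 was lower.

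Effector and regulatory genes differed less. Of the NADPH oxidase genes, Ncf1, Ncf4 and Rac2 were at least 2-fold higher (Ncf1 at 528.3 CPM, 850.8 CPM in single-type cells, against 144.9 CPM). Cybb, the catalytic subunit, was lower, at 26.9 CPM against 606.7 CPM, and its partner Cyba was at 1088 against 1146 CPM. Of 18 measured transcription factor genes, 8 were higher and 2 lower (median log2 ratio 0.95), and single-type cells gave 14 higher and 2 lower of 20 (1.599). Cebpb, a C/EBP factor of emergency granulopoiesis, was at 1352 CPM (2424 CPM in single-type cells) against 307.7 CPM, and Mxd1, a MAX partner that opposes MYC, at 684.9 CPM (1148 CPM) against 19.3 CPM. Cebpe, which drives secondary granule genes, was at 17.9 CPM. Irf8, which steers progenitors to monocytes, was at 8.95 CPM against 479.7 CPM.

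Interferon-stimulated genes gave 7 higher and none lower of 13 measured (median log2 ratio 1.64), and 12 higher of 17 in single-type cells (2.39). Ifitm1 was at 967 CPM (1524 CPM in single-type cells) against 13.9 CPM, Slfn4 at 228.3 CPM (336.4 CPM) against 0.582 CPM and Isg15 at 250.7 CPM (445.2 CPM) against 74.8 CPM. Isg15 was found in 18 of 53 cells and took up to 0.632% of their UMIs, so its level came from a part of the cells. Survival genes gave 5 higher and 2 lower of 12 (median log2 ratio 0.43). Mcl1, on which neutrophil survival depends, was at 1245 CPM against 353.7 CPM. Of 5 measured proliferation genes, Hmgb2, a chromatin protein, was higher, and Stmn1 and Tuba1b were lower, joined by Tubb5 and H2afz in single-type cells. S100 and annexin genes gave 5 higher and 2 lower of 10 (median log2 ratio 0.77), and 5 and 5 in single-type cells (0.44). S100a6 was at 3581 CPM (5857 CPM in single-type cells) against 497.6 CPM and S100a11 at 2010 CPM (3007 CPM) against 216.8 CPM, and S100a4 was found in a single neutrophil. Pattern recognition genes gave 5 higher and 1 lower of 12 (0.75), and 8 and 1 of 13 in single-type cells (1.71). Negative feedback genes of NF-kappaB and kinase signalling gave 6 higher and 1 lower of 15 (0.79), and 8 and 1 of 14 in single-type cells (1.35). Adhesion genes gave 4 higher and 2 lower of 16 (0.22), and 6 and 3 in single-type cells (0.26), with Selplg, the selectin ligand, at 586.4 CPM against 217.8 CPM. Glycolysis and hypoxia genes gave 3 higher and none lower of 11 (0.57), and 7 and none of 12 in single-type cells (1.02). All 7 MHC class II genes were lower (median log2 ratio -3.78, single-type -5.81), with Cd74 at 604.4 CPM (single-type 128.6 CPM) against 8271 CPM.

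Against the monocyte gate, the nearest class by lineage, 599 of 3164 genes were at least 2-fold higher (18.9%) and 415 lower (13.1%). Single-type cells gave 814 higher (26.4%) and 676 lower (22.0%) of 3078. This gate also held macrophages: C1qc was at 2188 CPM in it. Surface genes gave 13 higher and 1 lower of 17 (median log2 ratio 4.44), and the lower gene was Fcgr3. Secondary granule genes gave 11 higher and 3 lower of 15. Lyz2 was at 1410 CPM in neutrophils and 10390 CPM in the monocyte gate. It is among the genes that defined this gate, so its level there was set in part by the choice.

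Markers of other cell types differed by type. Hepatocyte markers took 2.39% of summed UMIs in the cirrhosis neutrophils, 0.306% in the single-type ones and 0.292% in other leukocytes. All 10 were at least 2-fold higher than in other leukocytes in the 53 cells, and 1 higher (Hp) and 5 lower of 9 in single-type cells. Of 10 Kupffer cell markers, 8 were measured and all 8 lower. Clec4f, which defines Kupffer cells, had no UMI in the 74 neutrophils, against 777.3 CPM in other leukocytes. The 10 T and NK markers took 0.00179% of neutrophil UMIs, with 8 of them at 0. Monocyte markers took 0% to 0.798% per cirrhosis neutrophil and 0% to 1.39% per control neutrophil, with 3 and 4 of 10 at 0. Endothelial markers took 0.234% and 0.285% of summed UMIs in neutrophils of the cirrhosis and control libraries, and 0.219% in other leukocytes. Of the mast cell, basophil and eosinophil markers, 8 of 10 were at 0 in the cirrhosis neutrophils. Siglecf, known from eosinophils, was found in 13 of 53 cirrhosis and 2 of 21 control neutrophils (76.1 and 21.3 CPM). Of 10 dendritic markers, Ccr7 was at 237.3 CPM, all of it from 1 mixed barcode.

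The next comparison set the neutrophils of the 2 libraries side by side, which the rule did not use. The control library had under 50 neutrophils, so levels of named genes are given and genes past a fold are not counted. S100a8, which chose the cells, was at 56760 CPM in single-type cirrhosis and 52210 CPM in single-type control neutrophils. Il1b was at 9675 and 8949 CPM, Cxcr2 at 1425 and 1471 CPM, and Mmp9 at 1533 and 1640 CPM in the same sets. Cirrhosis over control log2 ratios in single-type cells were 0.11 for Il1b (-0.04 to 0.26), -0.05 for Cxcr2 (-0.43 to 0.34) and -0.10 for Mmp9 (-0.46 to 0.27). All 3 intervals include 0, so no difference in these genes was detectable at this depth.

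Retnlg separated the libraries by the number of cells that carried it. It was found in 21 of 21 control neutrophils and 28 of 53 cirrhosis neutrophils. Thinned to 1200 UMIs, the shares were 90.5% (69.6% to 98.8%) and 45.3% (31.6% to 59.6%), and the intervals do not overlap. Single-type cells gave 94.7% and 45.0%. The summed levels were closer: 8443 CPM in single-type control and 6895 CPM in single-type cirrhosis neutrophils. A class that should lack the gene, endothelial barcodes, gave 0.2% of 500 control barcodes and 0 of 500 cirrhosis barcodes (up to 0.600% by the limit of 3 counts), with median depths of 7410 and 10282 UMIs. Retnlg and the genes in the next 2 paragraphs were singled out after their values had been seen.

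Ccl6, a CC chemokine of myeloid cells, went the same way, with thinned shares of 95.2% (76.2% to 99.9%) in control and 39.6% (26.5% to 54.0%) in cirrhosis neutrophils. In the monocyte gate Ccl6 was found in 46.9% and 41.04%. Padi4, which encodes the enzyme that citrullinates histones, was found in 33.3% of control and 7.55% of cirrhosis neutrophils, Mmp8 in 42.9% and 18.9%, and Slpi in 81.0% and 50.9%. Their intervals overlap. Irf1, an interferon-induced transcription factor, was found in 33.3% (14.6% to 57.0%) and 3.77% (0.460% to 12.98%). Mitochondrial share moved with the library: its median was 4.98% in cirrhosis and 1.54% in control neutrophils. Among cells with under 5% mitochondrial UMIs, Retnlg was found in 93.8% of 16 control and 55.6% of 27 cirrhosis neutrophils, with overlapping intervals.

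**Figure D3:**
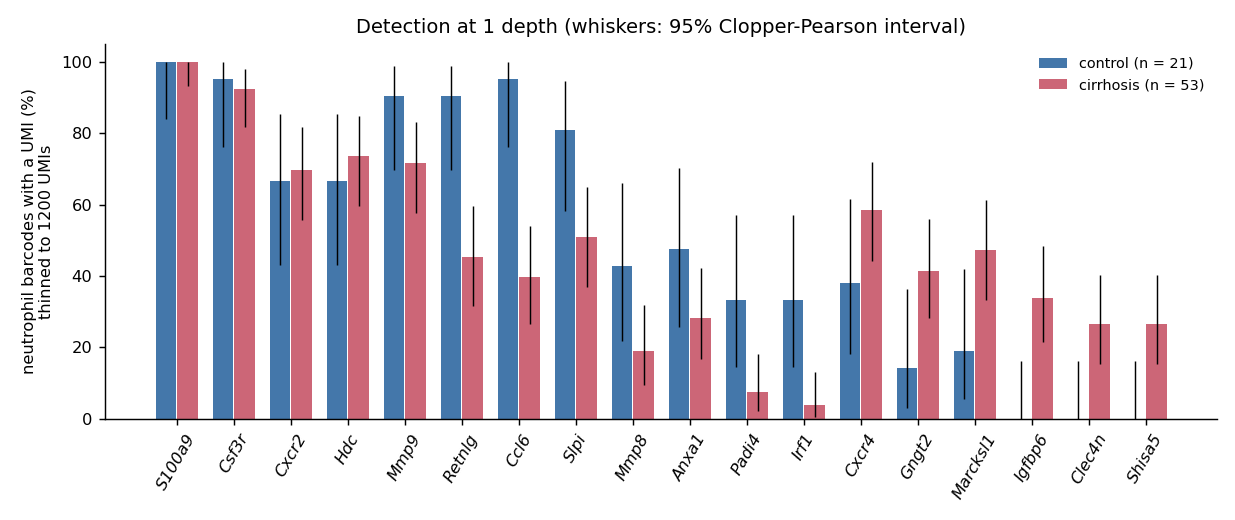
Percent of neutrophils with at least 1 UMI of each gene after thinning to 1200 UMIs (y axis), by library, with exact 95% whiskers. Retnlg, Ccl6 and Irf1 are more often detected in the control library, and Igfbp6 and Clec4n have no thinned UMI in the 21 control neutrophils.

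Several genes were higher in the cirrhosis neutrophils. Igfbp6, which encodes an insulin-like growth factor binding protein, was found in 22 of 53 cirrhosis neutrophils and 1 of 21 control neutrophils. Thinned, this was 34.0% (21.5% to 48.3%) against 0 of 21 cells, which by the limit of 3 counts allows a share of up to 14.3%. Its level was 375.9 CPM in single-type cirrhosis and 15.3 CPM in single-type control neutrophils, and 0.915 CPM in other leukocytes of the cirrhosis library. Clec4n, the fungal pattern receptor dectin-2, was at 385.8 against 15.3 CPM and in 18 of 40 against 1 of 19 single-type cells. Marcksl1, an actin-binding protein, was at 880.5 against 137.9 CPM and Gngt2, a G protein gamma subunit, at 682.6 against 153.2 CPM. Cxcr4 was at 1286 against 475 CPM in single-type cells, a log2 ratio of 1.44 (0.86 to 2.05), and after thinning it was found in 58.5% (44.1% to 71.9%) and 38.1% (18.1% to 61.6%) of cells, with overlapping intervals. Other leukocytes had 86.1 CPM of Cxcr4 in the cirrhosis library and 56.5 CPM in the control library.

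Fos and Junb, immediate early genes, were lower in the cirrhosis neutrophils and in the endothelial barcodes of that library. Fos was at 1781 CPM in single-type cirrhosis and 4199 CPM in single-type control neutrophils. Endothelial barcodes had 251.4 and 2228 CPM of Fos, and other leukocytes 510.5 and 1434 CPM. Junb was at 1880 against 4842 CPM in single-type neutrophils and 282.9 against 1517 CPM in endothelial barcodes. Dusp1, a phosphatase that ends kinase signalling, was at 2167 against 5608 CPM, and Klf2, a factor of quiescence, at 1375 against 3509 CPM. Condition and library cannot be told apart here, and the part of a library-wide difference in the neutrophil values was not tested.

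Over all neutrophils, the highest cirrhosis over control ratios belonged to Igfbp5, Serpina1a, Gc, Serpina1b and Ednrb. Igfbp5 was at 2279 CPM in the cirrhosis neutrophils and at 29.7 CPM in the single-type ones. It was found in 4 of 53 cells, with 504 UMIs in 1 barcode that was not single-type and at most 2 in any other. Serpina1a, a hepatocyte protease inhibitor, was at 1383 and 49.5 CPM in the same sets. The lowest ratios belonged to BC100530, Irf8, Cyr61, Ankrd1 and Bicc1. BC100530, another stefin A gene, was at 1121 CPM in the control library, from 2 single-type barcodes, and at 0 in the cirrhosis library. Irf8 was at 416.3 CPM in all and 61.3 CPM in single-type control neutrophils.

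Within the cirrhosis library, Retnlg divided the neutrophils. Of the 40 single-type cells, 20 had no Retnlg UMI, 5 had 1 to 2 and 15 had 3 or more. The median depth was 2472 UMIs in the cells with none and 2412 UMIs in those with 3 or more. The cells with Retnlg had more S100a8 and S100a9 (median 13.1%, from 1.54% to 33.9%) than those without (median 7.15%, from 1.29% to 24.4%), with overlap. Csf3r had medians of 0.344% and 0.264% and Il1b of 0.919% and 0.994% of UMIs.

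Among genes picked from this division after their values had been seen, several were higher in the cells with Retnlg. Mmp8 was found in 8 of 15 cells with Retnlg and 1 of 20 without, at 1009 and 19.8 CPM. Anxa1, which encodes annexin A1 and limits neutrophil recruitment, was found in 14 of 15 and 5 of 20 (1312 and 119 CPM). Ccl6 was at 3809 and 395 CPM, Slpi at 3355 and 474 CPM, Lcn2 at 3229 and 454.3 CPM and S100a6 at 10800 and 1778 CPM. S100a11 was at 5273 and 1323 CPM, and over the 40 cells its rank correlation with Retnlg was 0.829 after thinning.

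The cells without Retnlg were higher in another set. Marcksl1 was at 1185 CPM without and 302.7 CPM with Retnlg, and was found in 18 of 20 and 9 of 15 cells. Gngt2 was at 1007 and 378.4 CPM in 17 of 20 and 7 of 15 cells, and Igfbp6 at 474 and 126.1 CPM in 11 of 20 and 2 of 15 cells. Cxcr4 had a median of 0.172% of UMIs without and 0.0430% with Retnlg. Marcksl1, Gngt2, Igfbp6 and Cxcr4 were also among the genes that were higher in the cirrhosis than in the control neutrophils. Both descriptions share the cirrhosis cells. The mitochondrial share moved with this division as well: its median was 7.04% without Retnlg and 1.59% with 3 or more UMIs, and mt-Co3 was at 18130 and 5903 CPM. Among cells under 5% mitochondrial UMIs, 8 had no Retnlg, 4 had 1 to 2 UMIs and 12 had 3 or more. The part of mitochondrial share in the division was not tested.

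**Figure D4:**
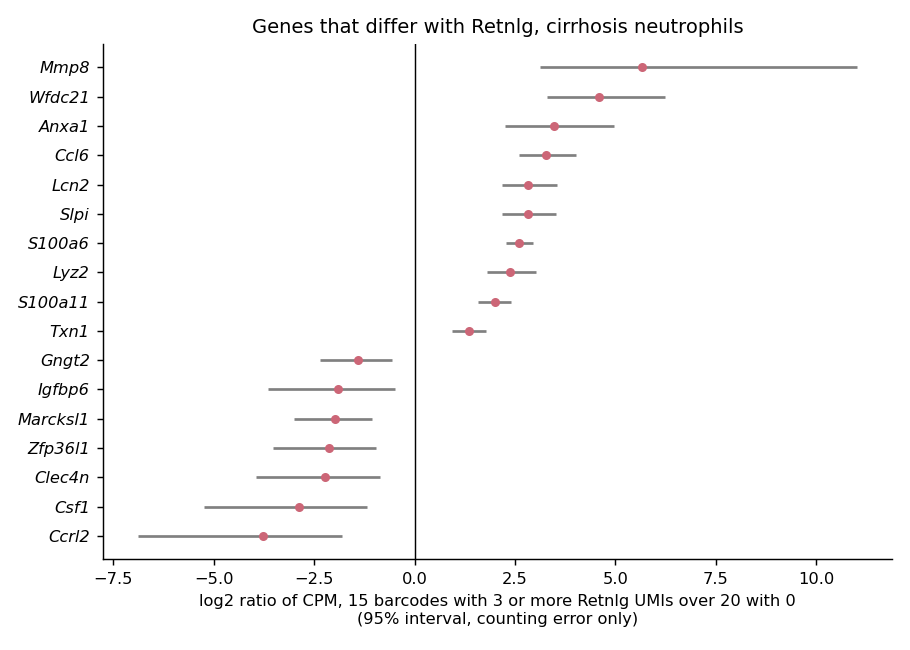
Log2 ratio of CPM in the 15 single-type cirrhosis neutrophils with at least 3 Retnlg UMIs over the 20 with none (x axis), for selected genes, with 95% counting intervals. Mmp8 lies furthest to the side of Retnlg and Ccrl2 furthest to the other side.

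Cell-to-cell variation was also described for Il1b and S100a8. Over the 53 cirrhosis neutrophils thinned to 1200 UMIs, the 5 closest genes to Il1b by Spearman rho were Cdk2ap2 (0.545), Egr1 (0.527), Cebpb (0.473), C5ar1 (0.468) and Tyrobp (0.460). Over the 40 single-type cells they were Mark2 (0.496), Egr1 (0.476), Csf2rb (0.473), Nisch (0.467) and Mbnl1 (0.466), so only Egr1 was among the 5 in both sets. Those closest to S100a8 after S100a9 were Lyz2 (0.645), Coro1a (0.488), S100a6 (0.410) and Txn1 (0.409) over the 53, and Lyz2 (0.623), Mmp8 (0.528), H2-K1 (0.462) and Jaml (0.433) over the 40. All are correlations over cells of 1 library, which share its depth and mixed barcodes, and describe these cells only.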

How the data were processed

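The deposited tables, 1 per library, held UMI counts per gene and barcode, made by the authors with Cell Ranger on the mm10 build, per the submitters' processing notes; its version is not given in the sources used here. Both tables started at about 500 UMIs per barcode. Neutrophils, the gene lists and the named genes were chosen with earlier results of these data known. Named genes were the 4 highest of each functional list, the extremes of each contrast, the list members of granules, receptors and cytokines, and the closest correlates of S100a8 and Il1b, with additions named as such in the text. Counts were summed per class, scaled to CPM and compared as log2 ratios with exact conditional 95% intervals. Genes at 0 took a floor of 3 counts. Shares above 0 have exact Clopper-Pearson intervals and shares of 0 the limit of 3 counts, and UMIs from 1 library cover counting error only. Detection was compared after thinning each barcode to 1200 UMIs. No doublets were removed; an alternative removed those scoring highest against simulated doublets (470 cirrhosis and 214 control barcodes). The calculations were tested on simulated data. Python 3.11.15, NumPy 2.4.6, SciPy 1.17.1, pandas 2.3.3 and scikit-learn 1.9.0 were used.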

Additional observations from a re-analysis of the deposited data

Results flagged for a closer look

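Barcodes outside the rule carried neutrophil signal in the cirrhosis library only. In that library 7 barcodes with at least 1% of UMIs from S100a8 and S100a9 failed the mitochondrial limit, and the control library had 0. Their mitochondrial share was 20.9% to 41.4%, and S100a8 with S100a9 took 1.45% to 5.26% of their UMIs.

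A further 4 cirrhosis barcodes passed the filters and had at least 1% of UMIs from the 11 other neutrophil markers without being neutrophils by the rule, and again the control library had 0. In 3 of them S100a8 and S100a9 took 0.127%, 0.129% and 0.1996% of UMIs. The fourth had 2.07% and was left out by its C1q share of 0.259%.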

How the results depend on the processing

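With at least 5% of UMIs from S100a8 and S100a9, neutrophils were 0.457% of filtered cirrhosis barcodes, with 711 genes at least 2-fold lower than in other leukocytes and 645 lower than in the monocyte gate. With genes from a mean of 20 CPM, 996 were higher and 1143 lower than in other leukocytes, and 1084 higher and 970 lower than in the monocyte gate. This lower limit adds genes to the 3243 and 3164 compared at 50 CPM, so its counts could not be smaller than those reported. Single-type neutrophils, a subset chosen after seeing the data, gave 714 and 676 lower genes. Under the other alternatives run, shares stayed in the interval of the reported share, and counts of genes, and of list genes summed over all lists, within 1.5 times. Without barcodes of at least 1% endothelial or hepatocyte genes, log2 ratios against other leukocytes changed sign for Alb (-1.80), Gc (-0.99), Serpina1b (-1.75) and Serpina1a (-2.17). In single-type cells they were Alb -1.55, Gc -0.95, Serpina1b -1.50, Serpina1a -1.65 and Igfbp5 -1.84, and Igfbp5 was at -3.56 with at least 5% of S100a8 and S100a9. Cirrhosis over control, Cyr61 changed to 0.37 in single-type cells. These subsets hold fewer mixed barcodes by construction. Of 1243 alternative values for 89 genes against other leukocytes, 934 lay in the interval of the reported value. For 29 genes compared cirrhosis over control, 244 of 312 did, 67 lay outside it and 1 changed sign. Median-of-ratios scaling moved the median of all genes by 0.02, 0.05 and -0.06. Retnlg was found in 100% of control neutrophils unthinned. No paired analysis was possible because each group is 1 library. Cirrhosis over control gene counts were not run, since the control library had under 50 neutrophils. At 21 control neutrophils, a gene absent from all of them may be in up to 14.3% of such cells.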
